A study of Mus musculus with 8 samples.

Results

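C498-0670 (C498) is a small molecule that the study took forward as an inhibitor of JAK/STAT and NFκB signaling, and the comparison described here is its effect on the RNA of macrophages that were then stimulated with LPS, the endotoxin of Gram-negative bacteria. It sets the 2 samples given C498 and LPS (C498+LPS) against the 2 samples given vehicle and LPS (LPS), 4 of the 8 samples of the series, over the 12189 genes that averaged 1 TPM or more, of 55801 genes in the table. TPM, the share of all transcripts that a gene holds, is a level corrected for gene length and scaled to a fixed total in every sample. The cells were peritoneal macrophages of male C57BL/6 mice aged 6 to 8 weeks, flushed from the abdominal cavity 72 h after 1 ml of thioglycollate, an irritant that recruits them. DMSO was the vehicle. C498 was given at 15 µM for 0.5 h, and LPS at 100 ng/ml for the 4 h that followed. The other 4 samples received vehicle alone (NC) or C498 alone (C498); they entered the same fit, and so its spread, and give the effect without LPS. The labels do not say whether the 2 samples of a group came from separate mice or cultures, so the p-values measure the spread between these samples only, which may be technical.

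LPS binds CD14 and the TLR4 complex on the macrophage surface. The adaptor MyD88 then leads to NFκB and MAP kinase activity and to early cytokines such as TNF, while the adaptor TRIF leads to IRF3, interferon β and, through the interferon receptor, to the interferon-stimulated genes. Immediate-early genes, among them the FOS, EGR and NR4A transcription factors, rise within minutes of many stimuli and usually fall again within hours. MAP kinase phosphatases such as DUSP1 and RNA decay factors such as ZFP36 act against the same response.

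The label of the cells was checked against marker genes first. Macrophage transcripts were abundant in all 4 samples, with Cd68, a lysosomal glycoprotein, at 2558 and 2419 TPM in LPS against 2419 and 2208 TPM in C498+LPS. Lyz2, which encodes lysozyme, was at 12790.2 and 13659 TPM in LPS against 9242 and 7831 TPM in C498+LPS. The summed TPM of 18 macrophage markers was 32405 and 34002 in LPS and 28106 and 25390.0 in C498+LPS, lower in both samples that had received C498, and 4 of the 17 markers tested had a positive log2 change. Of the 17, 2 were raised, Gata6, which marks resident peritoneal macrophages, among them at 1.96 and 1.81 TPM in LPS against 4.19 and 7.71 TPM in C498+LPS, and 0 were lowered, or 3 without C498+LPS replicate 1 and 1 without LPS replicate 2 or after median centring or quantile normalization. With no fold threshold 4 were raised and 7 lowered. Gata6 did not pass the test without C498+LPS replicate 2, LPS replicate 1, LPS replicate 2 or either C498 sample (adjusted p = 0.132, 0.125, 0.142, 0.0557 and 0.0559). Fibroblast and mesothelial markers were also present and were higher after C498, as described at the end with the other cell types. In bulk RNA, fewer cells of a type and less RNA per cell cannot be told apart.

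C498 before LPS raised 657 of the 12189 genes and lowered 266, counting changes of 2-fold or more whose adjusted p did not exceed 0.05 (limma on log2(TPM + 1), Benjamini-Hochberg). These are 5.39% and 2.18% of the genes tested, the background against which the gene lists are read. After median centring 579 genes were raised and 335 lowered, and after quantile normalization 531 and 306. Log2 changes are on the log2(TPM + 1) scale and are given with their standard error as ±. The fold changes of 121 raised and 17 lowered genes were at least 4 on this scale. In all 923 called genes the LPS samples and the C498+LPS samples did not overlap, which was so for 62.8% of the genes tested. Raised genes were mostly at low levels in the samples given LPS without C498: their median was 2.56 TPM in LPS against 10.6 TPM in C498+LPS. Lowered genes were more abundant, with a median of 33.4 TPM in LPS against 12.6 TPM in C498+LPS, while over all genes tested the medians were 11.99 and 12.71 TPM. The raised count was 333 without C498+LPS replicate 2, 340 without LPS replicate 1 and 300 without LPS replicate 2, and the lowered count was 141, 148 and 170 without the same samples.

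**Figure D1:**
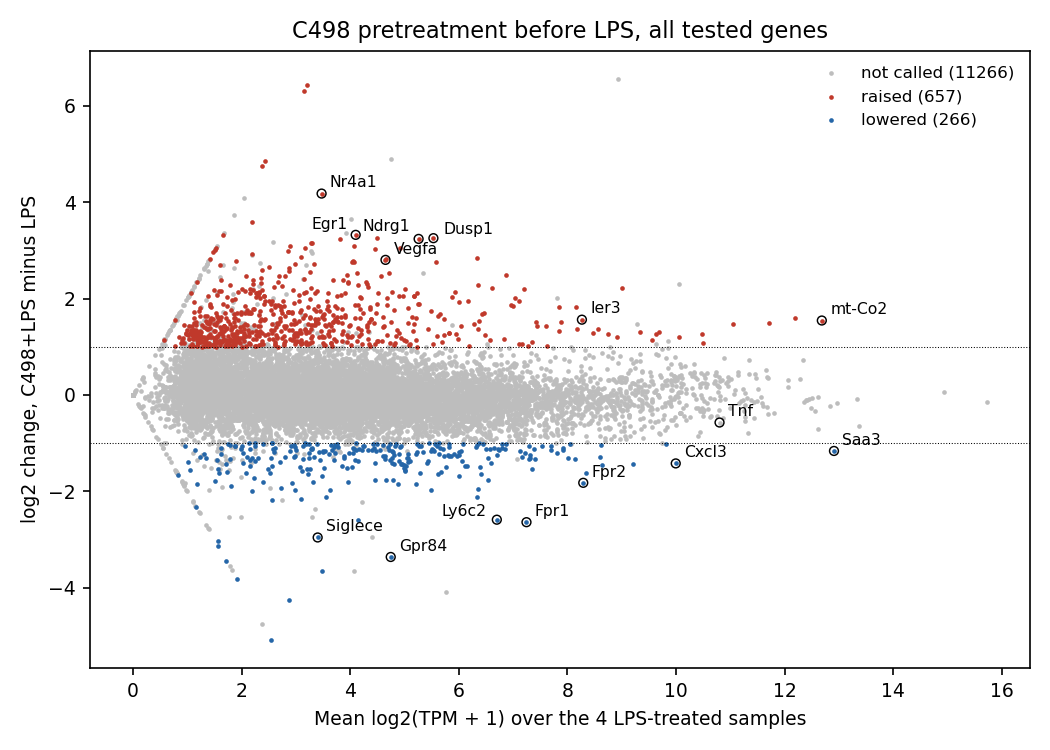
Each point is a gene, with its mean log2(TPM + 1) over the 4 LPS-treated samples on the horizontal axis and the log2 change of C498+LPS minus LPS on the vertical axis; red points are the 657 raised genes, blue points the 266 lowered genes and grey points the genes not called. Dotted lines mark a fold change of 2, and Tnf lies inside them at a log2 change of -0.57.

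Many immediate-early transcription factors were among the raised genes. Of 28 tested, 17 were raised (60.7%) and 0 lowered, 27 had a positive log2 change and the median was 1.24, against 0.0065 over all genes tested. Nr4a1, an orphan nuclear receptor, was at 1.44 and 1.79 TPM in LPS against 42.8 and 49.8 TPM in C498+LPS (log2 change 4.18 ± 0.16, adjusted p = 5.65e-05), a 28.7-fold rise of the mean. Its relative Nr4a3 was at 2.03 and 2.20 TPM in LPS against 24.1 and 25.3 TPM in C498+LPS (log2 change 3.05 ± 0.21, adjusted p = 4.61e-04). In both genes the C498+LPS samples lay far above the LPS samples and close to each other. Nr4a2 was at 0.44 and 0.20 TPM in LPS against 6.03 and 34.0 TPM in C498+LPS, with the C498+LPS replicates far apart, and its call did not hold without LPS replicate 1 or LPS replicate 2 or in a fit of these groups alone (adjusted p = 0.0723, 0.0844 and 0.0615).

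Zinc finger and AP-1 factors moved the same way. Egr1, a zinc finger factor induced by growth factors, was at 4.18 and 4.68 TPM in LPS against 51.6 and 54.8 TPM in C498+LPS (log2 change 3.32 ± 0.13, adjusted p = 7.01e-05). Fos, a subunit of AP-1, was at 1.89 and 2.27 TPM in LPS against 18.1 and 20.5 TPM in C498+LPS (log2 change 2.72 ± 0.14, adjusted p = 1.80e-04), and Jun, its partner, was at 27.6 and 26.2 TPM in LPS against 85.7 and 86.6 TPM in C498+LPS (log2 change 1.64 ± 0.13, adjusted p = 6.21e-04). Fosb was listed at 0 in both LPS samples and at 6.38 and 8.17 TPM in C498+LPS. Fos and Fosb were low in LPS, and Jun was above the median level of the tested genes there. Fosl1 was at 2.25 and 2.25 TPM in LPS against 24.8 and 31.1 TPM in C498+LPS, but was not called without C498+LPS replicate 2, LPS replicate 1 or LPS replicate 2 (adjusted p = 0.0695, 0.0583 and 0.0604). Csrnp1, Klf4, Ier3 and Zfp36, which encodes an RNA-binding protein that promotes the decay of cytokine mRNAs, were raised too, the last from 66.9 and 61.0 TPM in LPS to 234 and 239 TPM in C498+LPS (log2 change 1.87 ± 0.10, adjusted p = 2.79e-04). Atf3, a repressor of TLR targets, lay at the fold threshold and was not called (log2 change 1.00 ± 0.09, adjusted p = 0.00114). Of the 17 calls, 10 held under all 17 alternatives of the analysis.

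**Figure D2:**
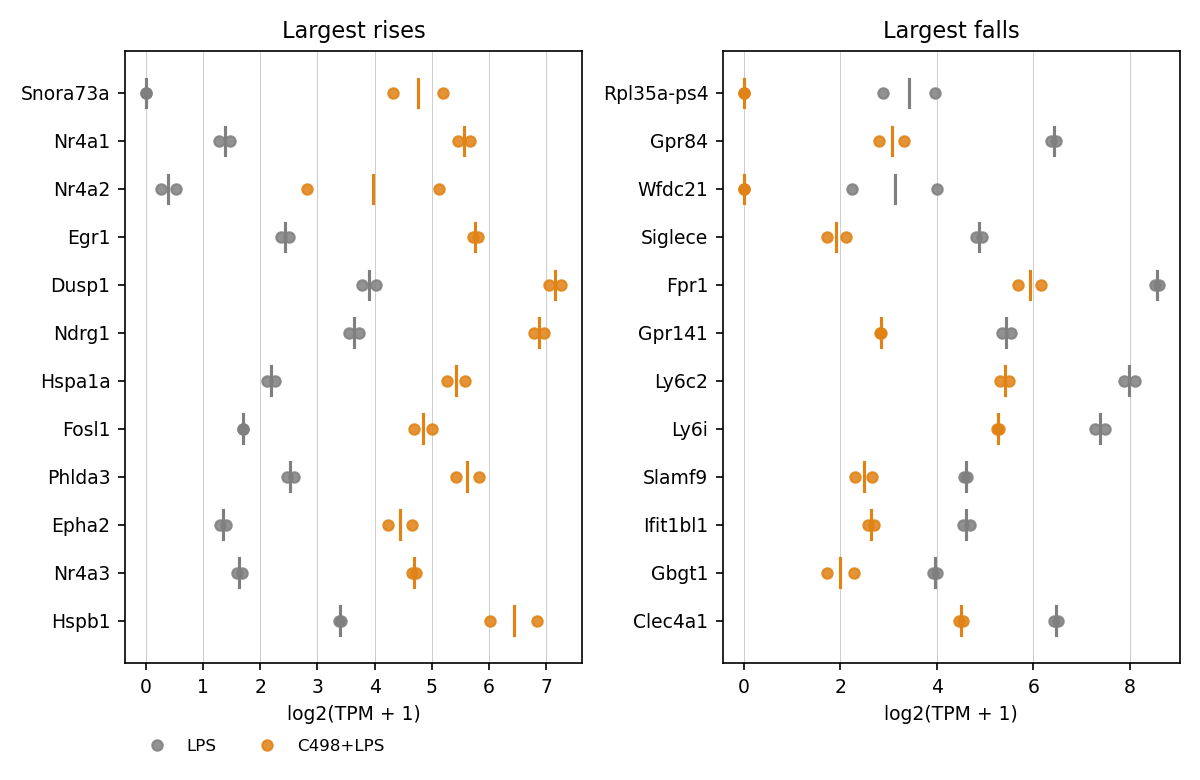
Points are single samples and vertical ticks group means of log2(TPM + 1) for the 12 largest rises (left) and the 12 largest falls (right) among genes with an established symbol and at least 5 TPM in the higher group, with LPS in grey and C498+LPS in orange. In every row the 2 colours are separate, as the rule that named the genes required, and the orange points of Nr4a2 are the farthest apart.

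Some feedback genes of MAP kinase and cAMP signaling were raised as well. Of 16 MAP kinase phosphatases and feedback regulators tested, 5 were raised (31.3%) and 0 lowered, with a median log2 change of 0.45. All 5 calls held under each alternative in which the gene was tested. The filter at a mean of at least 5 TPM left out Dusp14. Dusp1, which encodes a nuclear phosphatase that inactivates p38 and JNK, was at 12.8 and 15.3 TPM in LPS against 131 and 153 TPM in C498+LPS (log2 change 3.25 ± 0.14, adjusted p = 8.19e-05), a 10.1-fold rise. Dusp5, specific for ERK, was at 6.05 and 4.73 TPM in LPS against 26.5 and 39.6 TPM in C498+LPS (log2 change 2.39 ± 0.21, adjusted p = 9.85e-04), and Dusp10 at 1.29 and 1.47 TPM in LPS against 8.80 and 10.2 TPM in C498+LPS (log2 change 2.14 ± 0.18, adjusted p = 7.93e-04). Errfi1, an inhibitor of EGF receptors, was at 4.17 and 2.95 TPM in LPS against 17.8 and 22.3 TPM in C498+LPS and Dusp14 at 0.64 and 0.57 TPM in LPS against 3.79 and 4.61 TPM in C498+LPS. Among 17 genes that respond to cAMP and the factor CREB, 7 were raised (41.2%) and 1 was lowered, and the median was 0.70. The raised count was 4 without C498+LPS replicate 2 and 4 without LPS replicate 1, and Rgs2, Gem, Nfil3 and Sik1 held under all alternatives. Rgs2, a brake on G protein signaling, was at 1.54 and 2.43 TPM in LPS against 15.9 and 18.8 TPM in C498+LPS (log2 change 2.63 ± 0.20, adjusted p = 6.53e-04), and Gem, a small GTPase, at 15.5 and 12.8 TPM in LPS against 68.0 and 68.3 TPM in C498+LPS (log2 change 2.20 ± 0.17, adjusted p = 6.17e-04). Adora2a, an adenosine receptor, was the gene lowered (130.4 and 99.5 TPM in LPS against 59.0 and 51.4 TPM in C498+LPS), a call lost without C498+LPS replicate 2 or LPS replicate 1 (adjusted p = 0.0646 and 0.0536) and, in its fold, after quantile normalization (log2 change -0.91).

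The promoter of Dusp1 is shown because it is the most abundant of the raised phosphatase genes and holds a complete cAMP response element, TGACGTCA, which CREB and ATF factors can bind. The 250 bases before the gene start are given from RefSeq (chr17:26508473-26508722, GRCm38.p6, minus strand), with the element in capitals. It begins 143 bases before the start.
Dusp1: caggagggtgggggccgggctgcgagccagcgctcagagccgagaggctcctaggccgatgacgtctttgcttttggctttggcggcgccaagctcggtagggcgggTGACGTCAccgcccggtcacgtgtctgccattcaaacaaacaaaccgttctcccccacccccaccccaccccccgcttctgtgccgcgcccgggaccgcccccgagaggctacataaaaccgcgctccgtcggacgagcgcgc
Motifs were searched on both strands of such windows. The element was found in 2.68% of the 447 raised genes with a window in the RefSeq table, in 1.56% of the 192 lowered genes and in 3.08% of the 9054 genes tested, so its share among raised genes was not above that of all genes. The AP-1 motif TGANTCA was found in 9.40% of raised, 8.33% of lowered and 5.68% of all genes. It was found in 9 of the 32 interferon-stimulated genes with a window (28.1%). Of the 23 immediate-early factors with a window, 1 held the AP-1 motif (4.35%) and 2 the cAMP response element (8.70%). These shares describe letters in a window and no binding was measured.

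Stress genes were also among those raised. Of 20 heat shock genes tested, 6 were raised (30.0%) and 0 lowered, 19 had a positive log2 change and the median was 0.55. Hspb1, a small heat shock protein, was at 9.65 and 9.36 TPM in LPS against 64.2 and 114 TPM in C498+LPS (log2 change 3.04 ± 0.24, adjusted p = 7.25e-04), and Cryab, of the same family, at 26.6 and 31.6 TPM in LPS against 162 and 283 TPM in C498+LPS (log2 change 2.84 ± 0.24, adjusted p = 8.43e-04). In both, C498+LPS replicate 2 was the higher sample. Hspa1a, the inducible HSP70, was at 3.36 and 3.79 TPM in LPS against 37.5 and 46.8 TPM in C498+LPS (log2 change 3.23 ± 0.16, adjusted p = 1.41e-04) and its near-identical copy Hspa1b at 6.01 and 4.76 TPM in LPS against 32.6 and 55.1 TPM in C498+LPS, and reads may be divided between the pair. Of 26 apoptosis and p53 target genes, 8 were raised (30.8%) and 0 lowered, though the median was 0.14. Phlda3, a p53 target that inhibits AKT, was at 4.52 and 5.02 TPM in LPS against 41.8 and 55.8 TPM in C498+LPS (log2 change 3.10 ± 0.15, adjusted p = 1.56e-04). Mdm2, which encodes the ubiquitin ligase of p53, was at 107 and 94.7 TPM in LPS against 310.5 and 265 TPM in C498+LPS (log2 change 1.505 ± 0.17, adjusted p = 0.00211), and Pmaip1, a BH3-only protein, at 2.71 and 2.48 TPM in LPS against 11.5 and 12.4 TPM in C498+LPS (log2 change 1.85 ± 0.18, adjusted p = 0.00126). Bbc3, Bcl2l11, Ccng1, Gadd45a and Gadd45g were the others raised. Bcl2l11 lost its call without C498+LPS replicate 2, LPS replicate 1 or LPS replicate 2 (adjusted p = 0.0761, 0.0559 and 0.0755).

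Some genes of hypoxia, the unfolded protein response and lipid synthesis were raised. Ndrg1, induced by low oxygen and many stresses, was at 12.2 and 10.7 TPM in LPS against 109 and 125 TPM in C498+LPS (log2 change 3.24 ± 0.13, adjusted p = 7.01e-05). Vegfa, the angiogenic growth factor, was at 8.42 and 8.58 TPM in LPS against 63.8 and 66.6 TPM in C498+LPS (log2 change 2.80 ± 0.16, adjusted p = 2.79e-04). These genes and Egln3, not called without C498+LPS replicate 2 or either LPS sample, were the 3 of 26 glycolysis and hypoxia targets raised, and the median of that list was 0.05 and turned negative after median centring (-0.03). Of 26 genes of the ATF4, CHOP and unfolded protein response list, 3 were raised (Ddit4, Dnajb9 and, except without LPS replicate 2, Vldlr), 22 had a positive log2 change and the median was 0.46. The count was 6 without C498+LPS replicate 1. Ddit4, an inhibitor of mTORC1, was at 5.61 and 6.14 TPM in LPS against 29.7 and 38.4 TPM in C498+LPS (log2 change 2.34 ± 0.18, adjusted p = 6.17e-04). Of 28 sterol and fatty acid synthesis genes, 4 were raised, with Fasn, fatty acid synthase, at 9.18 and 10.8 TPM in LPS against 43.5 and 50.1 TPM in C498+LPS (log2 change 2.12 ± 0.14, adjusted p = 4.30e-04) and Fads2, a desaturase, at 2.35 and 2.32 TPM in LPS against 7.68 and 11.97 TPM in C498+LPS (log2 change 1.67 ± 0.24, adjusted p = 0.00487). Elovl6 was also raised, but lost its call in 11 of 16 alternatives, and 2 of 28 were raised without C498+LPS replicate 2, LPS replicate 1 or LPS replicate 2. Angptl4, a PPAR target that inhibits lipoprotein lipase, was at 1.79 and 2.22 TPM in LPS against 13.1 and 21.3 TPM in C498+LPS (log2 change 2.56 ± 0.24, adjusted p = 0.00126). Epha2, a receptor tyrosine kinase in none of the lists, was at 1.46 and 1.63 TPM in LPS against 17.7 and 24.2 TPM in C498+LPS (log2 change 3.09 ± 0.26, adjusted p = 8.25e-04).

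By abundance, the raised genes were led by transcripts of the mitochondrial genome. Of 15 tested, 8 were raised (53.3%) and 14 had a positive log2 change, with a median of 1.20. mt-Co2, a subunit of cytochrome c oxidase, was at 3662 and 4058 TPM in LPS against 8628 and 14649 TPM in C498+LPS (log2 change 1.54 ± 0.22, adjusted p = 0.00451), and mt-Nd1, a subunit of complex I, at 1174 and 1361 TPM in LPS against 2865 and 4304 TPM in C498+LPS (log2 change 1.47 ± 0.18, adjusted p = 0.00259). mt-Atp6, of ATP synthase, was at 273 and 204 TPM in LPS against 995 and 1231 TPM in C498+LPS (log2 change 2.23 ± 0.23, adjusted p = 0.00160), while mt-Nd2, mt-Nd4 and mt-Cytb had log2 changes of 1.26, 1.20 and 1.26. Mitochondrially encoded genes took 1.80% and 1.87% of the total TPM in LPS, and 3.12% and 4.602% in C498+LPS, where replicate 2 was the higher. The part of this share in the other results was not tested. Without LPS the share was 2.39% and 2.19% in NC and 3.07% and 3.01% in C498, so it was higher with C498 in that setting too. In C498 against NC the median log2 change of the 15 was 0.46 and 0 were called. mt-Co2 was not called without LPS replicate 1 (log2 change 1.47), and mt-Cytb fell just under the fold threshold without C498+LPS replicate 2 (log2 change 0.98). The ribosomal RNA mt-Rnr1 (log2 change 1.07 ± 0.21, adjusted p = 0.0141) lost its call without C498+LPS replicate 2 or either LPS sample (log2 change 0.71, 1.09 and 1.06). Its call was also lost after median centring or quantile normalization (log2 change 0.997 and 0.963). The same held with no filter on low values and in a fit of only the groups compared (adjusted p = 0.0519 and 0.0699). The 119 tested genes of the KEGG pathway Oxidative phosphorylation, mitochondrial ones included, had 6 raised, 0 lowered and a median of -0.04, or 0.06 after quantile normalization.

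Ribosomal and small nucleolar transcripts need more care. Rps6, a protein of the small ribosomal subunit, was at 489.8 and 525 TPM in LPS against 1037 and 1199 TPM in C498+LPS (log2 change 1.14 ± 0.13, adjusted p = 0.00207), while its copy Rps6-ps4 was at 619 and 529 TPM in LPS against 185 and 184 TPM in C498+LPS (log2 change -1.63 ± 0.13, adjusted p = 7.14e-04), in the opposite direction. Another copy, Rpl35a-ps4, was at 14.6 and 6.45 TPM in LPS and listed at 0 in both C498+LPS samples. Reads of such near-identical copies can be assigned to either, and these values are uncertain. Snora73a, a small nucleolar RNA, was listed at 0 in LPS and at 35.5 and 18.9 TPM in C498+LPS. It was 1 of 2 small nucleolar RNAs tested. Of 287 tested Zfp genes, which encode zinc finger proteins, 5 were raised (1.74%) and 3 lowered. The raised count was 3 without LPS replicate 1 and 3 without LPS replicate 2, and the lowered count 0 without C498+LPS replicate 2 or LPS replicate 2 and 1 without LPS replicate 1 or either C498 sample. Of the 130 tested genes of the KEGG pathway Ribosome, 4 were raised, 1 lowered and the median was 0.22. The lowered count was 0 without C498+LPS replicate 2 or LPS replicate 1. The raised count was 7 without C498+LPS replicate 1 and 2 without C498+LPS replicate 2 or with median centring.

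Receptors for chemoattractants and other surface receptors of myeloid cells were among the genes with the largest falls. Gpr84, a receptor for medium-chain fatty acids, was at 87.9 and 82.0 TPM in LPS against 9.04 and 5.98 TPM in C498+LPS (log2 change -3.36 ± 0.23, adjusted p = 4.62e-04), an 11.3-fold lower mean. Fpr1 and Fpr2, which bind formylated bacterial peptides, were at 389 and 367 TPM in LPS against 71.0 and 50.4 TPM in C498+LPS (log2 change -2.64 ± 0.18, adjusted p = 4.61e-04) and at 612 and 564 TPM in LPS against 184 and 149 TPM in C498+LPS (log2 change -1.82 ± 0.13, adjusted p = 4.95e-04). In NC, Gpr84 was at 16.5 and 12.9 TPM and Fpr1 at 87.1 and 71.98 TPM, so that in C498+LPS both lay below the NC samples, a difference that was not tested. Of 16 chemokine and chemoattractant receptors tested, 7 were lowered (43.8%) and 3 raised, and the median was -0.50. The lowered count was 4 without C498+LPS replicate 2, 3 without LPS replicate 1 and 4 without LPS replicate 2. Gpr84, Fpr1 and Fpr2 held under all alternatives, and C5ar1, Cmklr1, Gpr18 and P2ry14 were the others. Cxcr4, the receptor of CXCL12, went the other way, from 7.69 and 5.14 TPM in LPS to 35.6 and 46.8 TPM in C498+LPS (log2 change 2.52 ± 0.21, adjusted p = 7.93e-04). Ccr7, which guides cells to lymph nodes, was at 17.2 and 16.2 TPM in LPS against 46.8 and 112 TPM in C498+LPS, and its call was lost without LPS replicate 1 or LPS replicate 2 (adjusted p = 0.0704 and 0.0750). Gpr183 was raised as well, and the raised count was 1, Cxcr4, without LPS replicate 1 and 1 without LPS replicate 2.

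Other large falls included an inhibitory receptor and a lineage marker. Siglece, an inhibitory receptor for sialic acids, was at 29.6 and 27.2 TPM in LPS against 3.35 and 2.30 TPM in C498+LPS (log2 change -2.95 ± 0.20, adjusted p = 4.61e-04). Gpr141, an orphan receptor, was at 45.2 and 39.8 TPM in LPS against 6.08 and 6.23 TPM in C498+LPS (log2 change -2.60 ± 0.23, adjusted p = 9.85e-04), and Clec4a1, a C-type lectin, at 90.2 and 85.4 TPM in LPS against 21.0 and 22.5 TPM in C498+LPS (log2 change -1.97 ± 0.11, adjusted p = 3.03e-04). Ly6c2, the antigen that marks inflammatory monocytes, was at 274 and 234 TPM in LPS against 38.8 and 44.2 TPM in C498+LPS (log2 change -2.59 ± 0.14, adjusted p = 2.66e-04) and the similar Ly6i at 178 and 154 TPM in LPS against 37.2 and 38.0 TPM in C498+LPS (log2 change -2.11 ± 0.13, adjusted p = 3.57e-04). Slamf9 (log2 change -2.11 ± 0.17, adjusted p = 7.93e-04) and Gbgt1, a glycosyltransferase (log2 change -1.97 ± 0.22, adjusted p = 0.00201), fell by about as much. Wfdc21 was at 3.74 and 15.1 TPM in LPS and listed at 0 in C498+LPS. It was not called without LPS replicate 2, or without C498+LPS replicate 1 or 2 (adjusted p = 0.0757, 0.0743 and 0.102).

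Of the 8 most abundant lowered genes, 5 encode secreted proteins (Saa3, Cxcl3, Cfb, Pf4 and Lcn2). Saa3, an acute-phase protein of macrophages, was at 10804 and 12235 TPM in LPS against 5453 and 4849.7 TPM in C498+LPS (log2 change -1.16 ± 0.16, adjusted p = 0.00437), a call that was lost without C498+LPS replicate 2 or LPS replicate 2 (adjusted p = 0.0531 and 0.0553). Lcn2, which sequesters bacterial siderophores, was at 632 and 578 TPM in LPS against 254 and 238 TPM in C498+LPS (log2 change -1.29 ± 0.10, adjusted p = 6.19e-04), and Pf4, a CXC chemokine also made by platelets, at 612 and 702 TPM in LPS against 260.4 and 222 TPM in C498+LPS (log2 change -1.44 ± 0.11, adjusted p = 6.25e-04). Cfb, complement factor B, was at 1358 and 1212 TPM in LPS against 659 and 604 TPM in C498+LPS (log2 change -1.02 ± 0.09, adjusted p = 8.73e-04) and dropped under the fold threshold without C498+LPS replicate 2 or LPS replicate 1 (log2 change -0.96 and -0.94). In each of these genes both C498+LPS samples lay below both LPS samples, as the rule that named them required. Lcn2 is also a neutrophil marker. The summed TPM of 12 neutrophil markers was 890.4 and 847 in LPS and 439 and 398 in C498+LPS, 3 of the 7 tested (Lcn2, Csf3r and, except without LPS replicate 1, Retnlg) were lowered, with Ngp and Ly6g listed at 0 in all 4 samples and Cxcr2 at 0.05 TPM or less, and its part in the result was not tested.

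All interferon-stimulated genes tested had negative log2 changes, mostly of less than 2-fold. Of 40 tested, 6 were lowered (15.0%) and 0 raised, 0 had a positive log2 change and the median was -0.73. Without the fold threshold, 26 of the 40 were lowered. Ifit3b, of a family that binds viral RNA, was at 93.0 and 88.5 TPM in LPS against 29.7 and 33.2 TPM in C498+LPS (log2 change -1.502 ± 0.15, adjusted p = 0.00149). Its near-identical neighbour Ifit3 was at 747 and 739 TPM in LPS against 383 and 409 TPM in C498+LPS (log2 change -0.91 ± 0.09, adjusted p = 0.00139), under the fold threshold. Isg20, an exonuclease, was at 115 and 114 TPM in LPS against 37.7 and 43.8 TPM in C498+LPS (log2 change -1.47 ± 0.17, adjusted p = 0.00207), and Ifi213 at 103 and 93.4 TPM in LPS against 41.3 and 40.0 TPM in C498+LPS (log2 change -1.25 ± 0.16, adjusted p = 0.00339). Those 3 calls held under all alternatives. Ifi208 was not called without LPS replicate 1 (adjusted p = 0.0539), and Ddx58, the sensor RIG-I, not without C498+LPS replicate 2, LPS replicate 1 or LPS replicate 2 (adjusted p = 0.0688, 0.0667 and 0.0538). Ddx58 and Dhx58 also came under the fold threshold after quantile normalization (log2 change -0.99 and -0.96). Isg15, a ubiquitin-like protein, was at 2547 and 2369 TPM in LPS against 2211 and 2302 TPM in C498+LPS (log2 change -0.12 ± 0.08, adjusted p = 0.371) and was not called. Ifit1bl1, of the same family as Ifit3b and outside the list, had one of the largest falls, from 22.2 and 24.99 TPM in LPS to 5.52 and 4.98 TPM in C498+LPS (log2 change -1.98 ± 0.21, adjusted p = 0.00155).

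The promoter of Ifit3b is shown as the example of this set, since it holds 3 matches to the core of the interferon-stimulated response element, GAAANNGAA, which IRF factors and STAT complexes bind (chr19:34607707-34607956, GRCm38.p6, plus strand, RefSeq). The matches, in capitals, are on the reverse strand and begin 187, 153 and 134 bases before the gene start.
Ifit3b: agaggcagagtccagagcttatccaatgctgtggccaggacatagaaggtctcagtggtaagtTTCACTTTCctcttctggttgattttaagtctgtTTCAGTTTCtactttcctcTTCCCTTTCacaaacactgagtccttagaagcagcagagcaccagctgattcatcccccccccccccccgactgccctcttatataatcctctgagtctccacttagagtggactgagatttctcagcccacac
This core was found in the windows of 18 of the 32 interferon-stimulated genes in the RefSeq table (56.3%), of 18.2% of lowered genes, of 5.82% of raised genes and of 7.76% of all genes tested. Matches of different motifs were counted separately, also where their letters overlapped.

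In the interferon pathway upstream of these genes, calls went both ways. Irf8, a transcription factor of myeloid cells, was raised, from 118 and 93.0 TPM in LPS to 299 and 269.6 TPM in C498+LPS (log2 change 1.43 ± 0.13, adjusted p = 0.00122). Of 19 genes of type I interferon and its receptor signaling, 2 were raised, 2 lowered (Usp18 and Ikbke), 15 had a negative log2 change and the median was -0.49. With no fold threshold, 2 were raised and 10 lowered. Usp18, an inhibitor of the interferon receptor, was at 362 and 387 TPM in LPS against 185 and 183 TPM in C498+LPS, and Ikbke, a kinase of IRF3, at 118 and 115 TPM in LPS against 65.0 and 51.0 TPM in C498+LPS. Both lie at the fold threshold, and the lowered count was 0 without LPS replicate 2 or after quantile normalization and 1 without LPS replicate 1 or C498+LPS replicate 2. Irf4, the other gene raised, was called in none of the fits that left out C498+LPS replicate 2 or an LPS sample. Irf7, a transcription factor that amplifies interferon production, was at 1039 and 1008 TPM in LPS against 689.9 and 766 TPM in C498+LPS (log2 change -0.49 ± 0.12, adjusted p = 0.0309) and was not called. Of 18 guanylate-binding proteins and immunity-related GTPases, which interferon γ induces, 0 were called, or 4 lowered with no fold threshold, and the median was -0.44.

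Several Toll-like receptors were lowered. Of 27 genes of receptors, adaptors and kinases of the pathway tested, 7 were lowered (25.9%) and 0 raised, 3 had a positive log2 change and the median was -0.56. The 7 were Tlr1, Tlr3, Tlr4, Tlr6, Tlr7, Tlr8 and Irak3. Tlr1, which pairs with TLR2 to sense lipopeptides, was at 56.1 and 49.6 TPM in LPS against 21.3 and 15.0 TPM in C498+LPS (log2 change -1.51 ± 0.20, adjusted p = 0.00377) and was the only call that held under all alternatives. Tlr4, the LPS receptor itself, was at 14.1 and 12.6 TPM in LPS against 7.10 and 4.53 TPM in C498+LPS (log2 change -1.10 ± 0.30, adjusted p = 0.0446). Tlr7, a sensor of single-stranded RNA, was at 117 and 111 TPM in LPS against 61.2 and 47.1 TPM in C498+LPS (log2 change -1.07 ± 0.19, adjusted p = 0.0107). The count was 1 without C498+LPS replicate 2, 1 without LPS replicate 1, 2 without LPS replicate 2 and 3 without C498 replicate 1 or C498 replicate 2, although the median kept its sign in every alternative, between -0.75 and -0.36. Myd88 was at 179.9 and 174 TPM in LPS against 100.2 and 98.1 TPM in C498+LPS (log2 change -0.83 ± 0.09, adjusted p = 0.00156), not called, and Cd14, the LPS co-receptor, was the higher in C498+LPS at 1352 and 1250.5 TPM in LPS against 1797 and 1794 TPM in C498+LPS (log2 change 0.47 ± 0.08, adjusted p = 0.00926), not called either. Of 17 inflammasome and NOD sensors, Mefv (log2 change -1.41 ± 0.19, adjusted p = 0.00402) and Txnip (log2 change -1.36 ± 0.10, adjusted p = 5.98e-04) were lowered and 0 raised, and Nlrp3 was at 149 and 127 TPM in LPS against 141 and 115 TPM in C498+LPS (log2 change -0.11 ± 0.25, adjusted p = 0.814).

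Cytokines were divided. Of 27 tested, 4 were lowered and 6 raised, or 7 and 6 with no fold threshold, and the median was -0.34. Il12a, the p35 subunit of IL-12, was at 176 and 164 TPM in LPS against 53.3 and 46.2 TPM in C498+LPS (log2 change -1.75 ± 0.13, adjusted p = 6.25e-04). Il27 was at 239.9 and 254 TPM in LPS against 99.7 and 99.8 TPM in C498+LPS (log2 change -1.30 ± 0.15, adjusted p = 0.00226) and Ebi3, the other subunit of IL-27, at 68.1 and 63.2 TPM in LPS against 29.6 and 30.0 TPM in C498+LPS (log2 change -1.11 ± 0.13, adjusted p = 0.00211). Tnfsf10, the death ligand TRAIL, was at 14.1 and 15.1 TPM in LPS against 4.97 and 3.87 TPM in C498+LPS (log2 change -1.53 ± 0.20, adjusted p = 0.00345). The 4 lowered members of this list were thus subunits of the IL-12 family and TRAIL, and these calls held under all alternatives. The larger KEGG pathway Cytokine-cytokine receptor interaction had 22 raised (16.5%) and 11 lowered (8.27%) of 133 genes, or 28 and 28 with no fold threshold. The raised count was 11 without C498+LPS replicate 2, 12 without LPS replicate 1, 12 without LPS replicate 2 and 14 among genes with a mean of at least 5 TPM, and the lowered count was 7 without LPS replicate 1. Its lowered genes included Il36g, of the IL-1 family, at 5.2 and 7.23 TPM in LPS against 2.55 and 1.35 TPM in C498+LPS (log2 change -1.31 ± 0.29, adjusted p = 0.0242), which was named after its values were seen. The raised cytokines were low in LPS. Ifng was at 5.65 and 5.22 TPM in LPS against 25.9 and 48.0 TPM in C498+LPS (log2 change 2.50 ± 0.28, adjusted p = 0.00192), Il33 at 1.81 and 1.44 TPM in LPS against 8.74 and 11.3 TPM in C498+LPS (log2 change 2.06 ± 0.23, adjusted p = 0.00201) and Osm, of the IL-6 family, at 11.97 and 9.54 TPM in LPS against 28.4 and 24.6 TPM in C498+LPS (log2 change 1.23 ± 0.16, adjusted p = 0.00297). Il17a, Lif and Il10 were also raised, and without C498+LPS replicate 2 only 3 of the 6 were called. Il10, the main anti-inflammatory cytokine of macrophages, was at 0.66 and 1.16 TPM in LPS against 2.66 and 3.89 TPM in C498+LPS and was called neither without that sample nor without LPS replicate 1, LPS replicate 2 or either C498 sample (adjusted p = 0.133, 0.149, 0.0747, 0.0502 and 0.0509).

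Tnf, Il6 and Cxcl10, inflammatory genes strongly expressed after LPS, changed by less than 2-fold. Tnf was at 2157 and 2190.0 TPM in LPS against 1588 and 1347 TPM in C498+LPS (log2 change -0.57 ± 0.10, adjusted p = 0.00961), a fall that passed the adjusted p but not the fold threshold. Il6 was at 532 and 512 TPM in LPS against 424 and 401 TPM in C498+LPS (log2 change -0.34 ± 0.15, adjusted p = 0.186) and Cxcl10, a chemokine for T cells, at 2716 and 2744 TPM in LPS against 2011 and 2324 TPM in C498+LPS (log2 change -0.34 ± 0.12, adjusted p = 0.105), neither called. In all 3 the C498+LPS samples were below the LPS samples without overlap, and the groups did not overlap in 62.8% of all genes tested. The C498+LPS samples of all 3 were far above NC, where Tnf was at 50.9 and 49.9 TPM, Il6 at 1.05 and 1.80 TPM and Cxcl10 was at 23.5 and 26.6 TPM. Il1b was at 1626 and 1640.0 TPM in LPS against 1443 and 1137 TPM in C498+LPS (log2 change -0.35 ± 0.14, adjusted p = 0.128), Ptgs2, cyclooxygenase 2, at 549 and 425 TPM in LPS against 856 and 719.9 TPM in C498+LPS (log2 change 0.70 ± 0.28, adjusted p = 0.141), and Nos2, the inducible nitric oxide synthase, at 126 and 91.4 TPM in LPS against 88.7 and 81.0 TPM in C498+LPS (log2 change -0.34 ± 0.17, adjusted p = 0.224). None was called, and Ptgs2 was the one with the higher level in C498+LPS.

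Of 21 CC and CXC chemokines tested, 3 were lowered and 2 raised, and the median was -0.15. Cxcl3, a neutrophil attractant, was the most abundant of those lowered, at 1615 and 1720.2 TPM in LPS against 735 and 527 TPM in C498+LPS (log2 change -1.42 ± 0.16, adjusted p = 0.00195). Pf4 and Ccl12 were the others, and Ccl12 was not called without LPS replicate 1 (adjusted p = 0.0714). Ccl5, which attracts T cells, was at 8066 and 7948 TPM in LPS against 4959 and 4918 TPM in C498+LPS (log2 change -0.70 ± 0.11, adjusted p = 0.00639) and Ccl2, which recruits monocytes, at 1883 and 1727 TPM in LPS against 2223 and 2176 TPM in C498+LPS (log2 change 0.29 ± 0.08, adjusted p = 0.0433), neither called. Cxcl9 and Ccl22 were raised, and the raised count was 1 without C498+LPS replicate 2, LPS replicate 1 or either C498 sample and 0 without LPS replicate 2. The promoter of Cxcl3 is given as that of an abundant lowered chemokine with an NFκB motif, searched as GGNNTTTCC and its reverse complement, in the window (chr5:90785851-90786100, GRCm38.p6, plus strand, RefSeq). The match, in capitals, begins 72 bases before the gene start.
Cxcl3: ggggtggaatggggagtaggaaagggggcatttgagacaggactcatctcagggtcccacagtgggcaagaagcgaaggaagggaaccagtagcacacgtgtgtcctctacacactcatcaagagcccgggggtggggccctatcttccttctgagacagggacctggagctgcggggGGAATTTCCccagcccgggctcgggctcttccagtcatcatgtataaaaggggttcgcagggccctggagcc
The motif was found in 7.81% of lowered, 4.70% of raised and 6.28% of all genes tested, and in 3 of the 32 interferon-stimulated genes with a window.

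Short lists of the pathway components that C498 was selected against held 1 call each, and broader KEGG pathways held more. Of 30 JAK, STAT and SOCS genes tested, Cish, a feedback inhibitor of STAT5, was raised, from 11.9 and 11.4 TPM in LPS to 31.8 and 29.9 TPM in C498+LPS (log2 change 1.33 ± 0.15, adjusted p = 0.00190), 0 were lowered and the median was 0.08. Without C498+LPS replicate 1 the list had 2 raised and 1 lowered. Of 23 NFκB subunits, inhibitors and kinases, Ikbkg, which encodes NEMO, was lowered (38.0 and 29.7 TPM in LPS against 16.5 and 13.0 TPM in C498+LPS), 0 were raised and the median was 0.02, or -0.05 after median centring. The call of Ikbkg was lost without C498+LPS replicate 2 or LPS replicate 1 (adjusted p = 0.0914 and 0.0908). Nfkbia, a direct NFκB target that encodes IκBα, was at 719 and 640.5 TPM in LPS against 759.9 and 784 TPM in C498+LPS (log2 change 0.19 ± 0.11, adjusted p = 0.324). In the broader KEGG annotation of the table, the NF-kappa B pathway had 6 raised (6.82%) and 4 lowered (4.55%) of 88 genes, the JAK-STAT pathway 10 (10.2%) and 5 (5.10%) of 98, the Toll-like receptor pathway 4 and 9 of 78, the NOD-like receptor pathway 1 and 7 of 146 and the MAPK pathway 27 and 4 of 196. With no fold threshold the lowered outnumbered the raised in the first 2, with 11 raised and 16 lowered for NF-kappa B and 13 and 18 for JAK-STAT, and the short list of JAK, STAT and SOCS genes had 1 raised and 6 lowered. The counts raised and lowered were then 7 and 25 for Toll-like receptors, 9 and 34 for NOD-like receptors and 37 and 21 for MAPK. With the fold threshold, the lowered counts came down to between 1 and 4 without C498+LPS replicate 2 and between 1 and 3 without LPS replicate 1 in the NF-kappa B, Toll-like, NOD-like and MAPK pathways. Without LPS replicate 2, the Toll-like receptor count was 3 and the NF-kappa B count 2. In the same pathways the raised counts of NF-kappa B were 3 without LPS replicate 1 and 3 without LPS replicate 2, those of JAK-STAT 5 without C498+LPS replicate 2, 6 without LPS replicate 1 and 6 without LPS replicate 2, those of Toll-like receptors 2 without C498+LPS replicate 2 and 2 without LPS replicate 2, and that of NOD-like receptors 3 without C498+LPS replicate 2 and 2 without C498+LPS replicate 1.

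**Figure D3:**
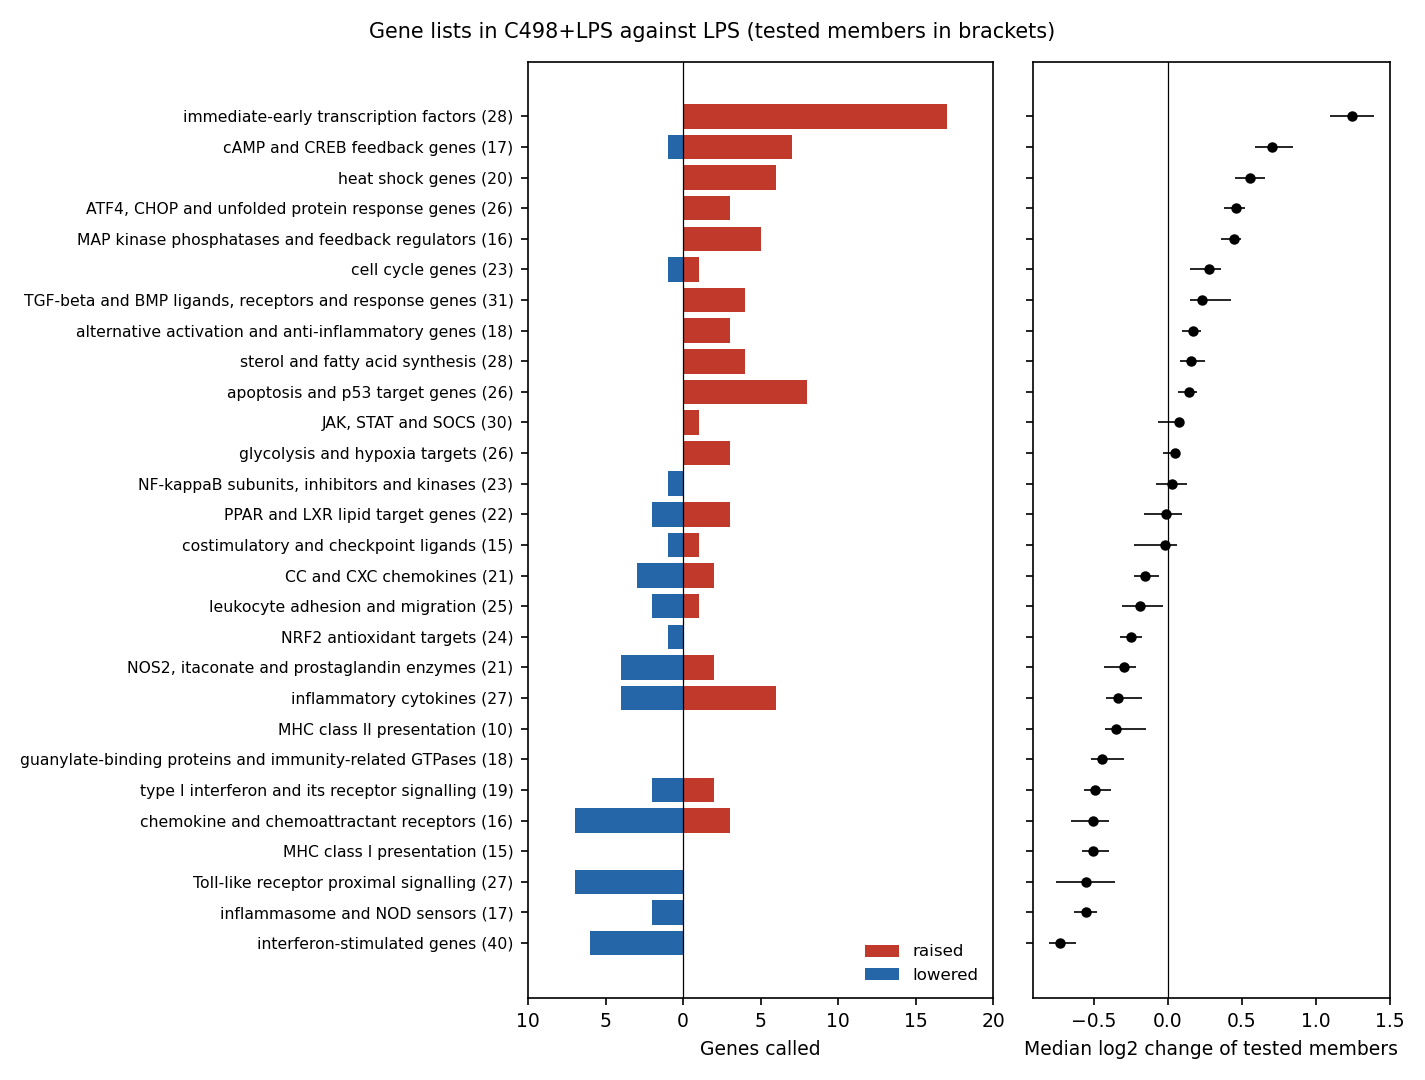
The left panel counts the raised (red) and lowered (blue) genes of each list in C498+LPS against LPS, with the number of tested members in brackets, and the right panel gives the median log2 change of the tested members as a point and its range over the alternatives as a line. Cell type marker lists and KEGG pathways are not drawn. Among the lists drawn, immediate-early transcription factors lie at the top with a median of 1.24 and interferon-stimulated genes at the bottom with -0.73.

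Short lists of antigen presentation, adhesion, lipid and polarisation genes held between 0 and 6 calls each, and broader KEGG pathways held more. Of 15 genes of MHC class I presentation 0 were called, though none had a positive log2 change, 7 were lowered with no fold threshold and the median was -0.51, and of 10 genes of MHC class II presentation 0 were called with a median of -0.35. In the broader KEGG pathway Antigen processing and presentation, 3 of 56 genes were raised and 2 lowered, or 9 and 10 with no fold threshold, and the lowered count was 1 without C498+LPS replicate 2 or LPS replicate 1 and after quantile normalization. The lowered genes were H2-M2, at 264 and 228 TPM in LPS against 132 and 95.1 TPM in C498+LPS (log2 change -1.12 ± 0.18, adjusted p = 0.00736), and H2-T24, at 77.0 and 74.1 TPM in LPS against 33.6 and 29.7 TPM in C498+LPS (log2 change -1.23 ± 0.11, adjusted p = 0.00116), class I genes outside the shorter list that were named after their values were seen. Of 15 costimulatory and checkpoint ligands, Cd83 was raised (37.3 and 33.2 TPM in LPS against 86.8 and 86.9 TPM in C498+LPS) and Icosl lowered (17.6 and 15.1 TPM in LPS against 7.65 and 5.84 TPM in C498+LPS), a call lost without C498+LPS replicate 2, LPS replicate 1 or LPS replicate 2 (adjusted p = 0.0851, 0.0955 and 0.0653), while without C498+LPS replicate 1 the raised count was 2. With no fold threshold 1 was raised and 4 lowered. Of 25 adhesion and migration genes, Itgal, the integrin chain CD11a, was lowered (127 and 108 TPM in LPS against 47.9 and 35.7 TPM in C498+LPS; log2 change -1.48 ± 0.19, adjusted p = 0.00288), with Siglec1, while Vcam1 was raised. Itgal held under all alternatives, and the lowered count was 4 without C498+LPS replicate 1. Siglec1 and Vcam1 were not called without C498+LPS replicate 2, LPS replicate 1 or LPS replicate 2. KEGG Cell adhesion molecules had 12 raised (15.4%) and 6 lowered (7.69%) of 78 genes, and these counts fell to 2 and 2 without C498+LPS replicate 2, 3 and 2 without LPS replicate 1 and 1 and 4 without LPS replicate 2. They were 3 and 5 among genes with a mean of at least 5 TPM. Of 21 genes of nitric oxide, itaconate and prostaglandin synthesis, 4 were lowered and 2 raised. Alox15, a lipoxygenase, was at 3.29 and 3.32 TPM in LPS against 0.15 and 0.23 TPM in C498+LPS (log2 change -1.86 ± 0.25, adjusted p = 0.00349) and Ncf1, a subunit of the NADPH oxidase, at 217 and 201 TPM in LPS against 102 and 85.1 TPM in C498+LPS (log2 change -1.16 ± 0.11, adjusted p = 0.00122), and Ass1 and Ptges were lowered too. Ptgs1, cyclooxygenase 1, was raised, but was not called without C498+LPS replicate 2 or either LPS sample. Ptges, a prostaglandin E synthase, was at 274 and 262 TPM in LPS against 142 and 114 TPM in C498+LPS and came under the fold threshold without C498+LPS replicate 2 (log2 change -0.91), and Ass1 and Ptges did so after quantile normalization, which left 2 lowered. Of 22 PPAR and LXR targets, 3 were raised and 2 lowered with a median of -0.01, Acsl1, an acyl-CoA synthetase, at 298 and 258 TPM in LPS against 109 and 82.5 TPM in C498+LPS (log2 change -1.54 ± 0.20, adjusted p = 0.00305) being lowered under all alternatives and Abcg1, a cholesterol exporter, not without C498+LPS replicate 2 or either LPS sample. Of 31 TGF-β and BMP genes 4 were raised. The count was 1 without C498+LPS replicate 2 or LPS replicate 2 and 2 without LPS replicate 1, C498 replicate 1 or C498 replicate 2. KEGG TGF-beta signaling had 10 raised (15.9%) and 0 lowered of 63 genes, with 5 raised without C498+LPS replicate 2, 4 without LPS replicate 1 and 5 without LPS replicate 2. Of 24 NRF2 targets Gsr, glutathione reductase, was lowered (146 and 144 TPM in LPS against 70.7 and 63.9 TPM in C498+LPS), just under the fold threshold after quantile normalization (log2 change -0.97), and Hmox1, heme oxygenase 1, was higher in C498+LPS by just under the threshold (625 and 598 TPM in LPS against 1244 and 1122 TPM in C498+LPS; log2 change 0.95 ± 0.10, adjusted p = 0.00155). The median of the NRF2 targets was -0.25, and with no fold threshold 2 were raised and 8 lowered. Of 18 genes of alternative activation 3 were raised (Vegfa, Il10 and Gas6), or 1 without either LPS sample or either C498 sample. Of 23 cell cycle genes Rrm2 was raised and Plk1 lowered, and neither was called without LPS replicate 1 or LPS replicate 2, nor Plk1 without C498+LPS replicate 1 or Rrm2 without C498+LPS replicate 2.

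C498 was also given without LPS, so that its effects with and without LPS can be set side by side. The labels do not say when the samples without LPS were harvested, so the time with C498 may differ between these settings. Against NC, C498 alone raised 687 genes (5.64%) and lowered 166 (1.36%), or 565 and 269 after median centring and 548 and 266 after quantile normalization. Of the 657 genes raised with LPS, 427 were raised without it (65.0%, and 62.2% of the 687), and of the 266 lowered with LPS, 68 were lowered without it (25.6%, and 41.0% of the 166). Across the 12189 genes Pearson's r between the 2 sets of log2 changes was 0.576 and Spearman's rho 0.580, a description over genes that are not independent replicates. The 2 comparisons share no sample. The sign was shared more widely: 247 of the 266 lowered genes had a negative log2 change there, with a median of -0.70, and 636 of the 657 raised genes a positive one. The 427 fell to 173 without C498 replicate 1, 172 without C498 replicate 2, 244 without C498+LPS replicate 2, 262 without LPS replicate 1 and 230 without LPS replicate 2, and the 68 to 44 without C498 replicate 1 and 45 without C498+LPS replicate 2. For C498 against NC the raised count was 274 without C498 replicate 1, 309 without C498 replicate 2, 1186 without NC replicate 1 and 425 without the other NC sample, and the lowered count 71 and 81 without the C498 samples.

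Nr4a1 was at 105 and 104 TPM with C498 alone and Dusp1 at 496 and 435 TPM, above their levels in C498+LPS, whereas Ndrg1 was at 72.01 and 75.4 TPM, below its level in C498+LPS. Of these 3 genes the difference between the effects of C498 was called for Dusp1 alone (adjusted p = 0.0310), and not for Nr4a1 (adjusted p = 0.0504) or Ndrg1 (adjusted p = 0.731). That difference, the interaction, is the C498 effect with LPS minus that without, and it passed the same thresholds in 9 genes where it was higher with LPS (0.0738%) and in 48 where it was lower (0.394%). Il6, Tnf, Cxcl10 and Dusp1 were among the 48. Of the 27 cytokines 8 had a called interaction, and of the 21 chemokines 7, in each case lower with LPS. C498 alone raised Il6, Tnf and Cxcl10, with Cxcl10 at 131 and 110.0 TPM against 23.5 and 26.6 TPM in NC, while with LPS their log2 changes were negative. The 48 became 20 without C498 replicate 1, 10 without C498+LPS replicate 1, 13 without C498+LPS replicate 2, 9 without LPS replicate 1, 11 without LPS replicate 2 and 27 without NC replicate 2, and the 9 became 0, 3, 19, 0, 2, 28 and 27 without C498 replicate 1, C498 replicate 2, C498+LPS replicate 2, LPS replicate 1, LPS replicate 2 and the NC samples.

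**Figure D4:**
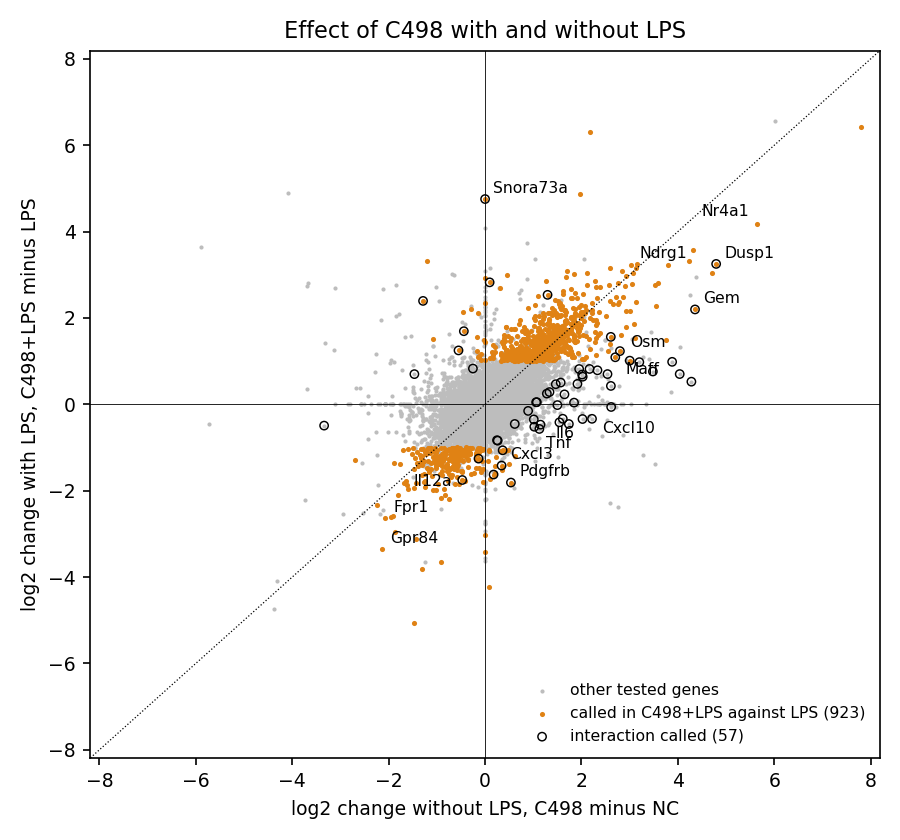
Each point is a gene, with its log2 change of C498 minus NC on the horizontal axis and of C498+LPS minus LPS on the vertical axis; orange points are the 923 genes called with LPS, open circles the 57 genes whose interaction was called, and the dotted line marks equal effects. Il6, Tnf and Cxcl10 lie to the right of 0 and just below it, Nr4a1 and Dusp1 high in the upper right.

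Transcripts of other cell types moved with C498. The summed TPM of 10 fibroblast markers was 213 and 188 in LPS and 628 and 923 in C498+LPS, with 640.2 and 757 in C498 and 195 and 155 in NC. Of the 8 tested, 5 were raised and 1 lowered. Col1a1, collagen I, was at 77.5 and 61.4 TPM in LPS against 219.5 and 326 TPM in C498+LPS (log2 change 1.94 ± 0.24, adjusted p = 0.00285), and Dcn, the proteoglycan decorin, at 27.2 and 29.4 TPM in LPS against 104 and 154 TPM in C498+LPS (log2 change 2.13 ± 0.18, adjusted p = 8.04e-04). Col1a2, Col3a1 and Postn rose as well, Postn without its call when C498+LPS replicate 2 or LPS replicate 2 was left out (adjusted p = 0.0527 and 0.0653). Lum and Fap were under 1 TPM in all 4 samples, and Pdgfrb, a receptor of mural cells and fibroblasts, was lowered (9.63 and 8.03 TPM in LPS against 1.97 and 1.62 TPM in C498+LPS; log2 change -1.81 ± 0.21, adjusted p = 0.00226). Mesothelial markers, from the lining of the abdominal cavity, summed to 6.29 and 6.96 in LPS and 21.3 and 36.1 in C498+LPS. Among them Krt19, at 0.12 and 0.28 TPM in LPS and 0.13 and 0.11 TPM in NC, passed the filter on mean TPM only through the samples with C498. Wt1, Krt19 and Upk1b, 3 of 5 tested, were raised. The count was 1 without C498+LPS replicate 2 or LPS replicate 2 and 0 without LPS replicate 1. B cell markers summed to 26.7 and 28.2 in LPS and 44.1 and 125 in C498+LPS, mostly Ighm, and dendritic cell markers to 23.1 and 23 in LPS and 56.0 and 123 in C498+LPS, mostly Ccr7, with C498+LPS replicate 2 the highest in each. 2 of the 3 tested dendritic cell markers, Ccr7 and Zbtb46, were raised, or 0 without either LPS sample, and Ighm lost its call without any one sample except C498+LPS replicate 1, while Ms4a1 stayed under 1 TPM and Siglech and Clec9a at 0.07 TPM or less. T and NK cell markers (89.6 and 80.8 in LPS and 95.6 and 89.6 in C498+LPS, mostly Il7r, with Trbc1, a T cell receptor chain, at 0.59 and 0.16 TPM in LPS against 1.44 and 2.79 TPM in C498+LPS and Trbc2 at 2.04 and 0.73 TPM against 2.14 and 3.85 TPM), eosinophil and mast cell markers (11.4 and 11.4 in LPS and 9.48 and 23.8 in C498+LPS, Epx and Prg2 listed at 0) and endothelial markers (21.8 and 24.5 in LPS and 22.9 and 22.7 in C498+LPS) had 0 calls, apart from 1 eosinophil and mast cell marker raised without C498+LPS replicate 1 and 1 in a fit with the replicate number as a block. The fibroblast, mesothelial, B cell and dendritic cell sums were higher in the same samples as the 657 raised genes, and their part in those results was not tested.

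**Figure D5:**
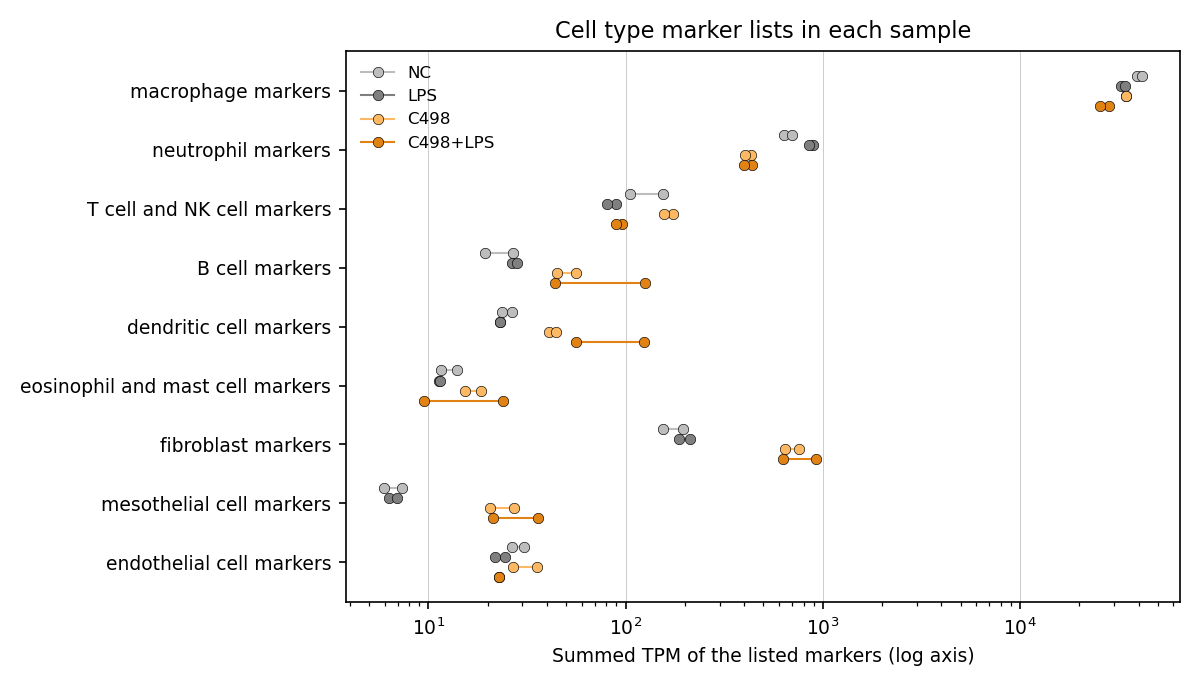
Each point is the summed TPM of a marker list in 1 sample, on a log axis, with a line joining the 2 samples of a group. The fibroblast and mesothelial sums of the 4 samples with C498 lie above those of the 4 samples without it, and the macrophage sums are lowest in C498+LPS.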

How the data were processed

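RNA of 8 samples of mouse peritoneal macrophages, 2 for each of 4 groups, was sequenced. The TPM values were deposited by the authors, who used fastp for filtering, HISAT2 for alignment, StringTie for assembly and RSEM for quantification, per the submitters' processing notes; versions, genome build and annotation are not given in the sources used here. TPM keeps no depth, so no counting interval can be given, and shares of a fixed total can move together. The authors' group means and annotation columns stand in the same table; the means were not used, and the KEGG pathway annotation was used for the pathways named in the text.

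Genes that averaged 1 TPM or more went into limma 3.58.1 (R 4.3.3) on log2(TPM + 1), with 1 mean per group over all 8 samples, a variance trend and Benjamini-Hochberg adjustment within each contrast. The log2 change understates the change of genes at low levels. The filter used the mean of all 8 samples. Some raised genes, such as Krt19, Postn and Zbtb46, passed it only through the samples with C498. A gene was called at a change of 2-fold or more whose adjusted p did not exceed 0.05. An exact permutation test of 2 against 2 samples cannot go below p = 0.333 and was not used. On simulated data with 200 changed genes among 12189, the C498+LPS against LPS fit recovered 200 with 0 false calls. The accuracy of the calls in the real samples was not tested. Of the tested genes, 97.5% matched an identifier in the GENCODE annotation of GRCm38.

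The members and gene lists were chosen with earlier results of these data known. Named genes were the 12 with the largest log2 change in each direction among non-overlapping called genes with an established symbol and at least 5 TPM in the higher group, the 8 most abundant in each direction, list members, and Il6, Tnf and Cxcl10. Some genes that the rule named are not reported here. Alternatives were other pseudocounts, filters, scalings and fits, and each sample left out in turn; where a group then had 1 sample, it was assumed to vary like the others.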

Additional observations from a re-analysis of the deposited data

Results flagged for a closer look

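These results were picked out because the effect of C498 with LPS differed from that without LPS in limma's interaction test; values are the log2 change with LPS minus that without, and no explanation was tested. Values are given for 14 of the 57 genes called. Inflammatory genes raised by C498 alone but not with LPS included Cxcl10 (-2.55, adjusted p = 0.0031), Il6 (-2.36, adjusted p = 0.0128) and Tnf (-1.70, adjusted p = 0.00931). Genes raised by C498 in both settings, but less with LPS, included Dusp1 (-1.54, adjusted p = 0.031), Gem (-2.16, adjusted p = 0.0213), Ier3 (-1.05, adjusted p = 0.043), Maff (-1.61, adjusted p = 0.019) and Osm (-1.57, adjusted p = 0.0412). Genes lowered by C498 with LPS, with a positive log2 change without it, included Cxcl3 (-1.76, adjusted p = 0.031), Pdgfrb (-2.35, adjusted p = 0.031), Ptges (-1.43, adjusted p = 0.0351) and Rps6-ps4 (-1.80, adjusted p = 0.019). Il12a had a more negative log2 change with LPS (-1.28, adjusted p = 0.0489). Snora73a was listed at 0 in the 6 samples of the other groups and passed the filter only through C498+LPS. Its value (4.75, adjusted p = 0.0128) therefore rests on 2 samples, and the zeros of the others show no spread.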

How the results depend on the processing

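All 165 called genes that the lists and naming rule gave kept their direction under each alternative in which they were tested. In every called gene the 2 groups did not overlap, so leaving out 1 sample could not turn a direction. Several other alternatives left the log2 change as it was. Of the 165 genes, 93 were called under every alternative in which they were tested. Most losses came without C498+LPS replicate 2, LPS replicate 1 or LPS replicate 2, and the cause was not tested beyond the fewer samples of those fits. The 657 genes raised in C498+LPS against LPS became between 300 and 677 when 1 sample was left out, 382 with a filter at a mean TPM of at least 5 and 1107 with no fold change threshold. The 266 genes lowered in C498+LPS against LPS became between 141 and 279 when 1 sample was left out, 938 with no fold change threshold. The 687 genes raised in C498 against NC became between 274 and 1186 when 1 sample was left out, 452 with a filter at a mean TPM of at least 5, 306 with a fit of only the groups compared and 1132 with no fold change threshold. The 166 genes lowered in C498 against NC became between 71 and 215 when 1 sample was left out, 269 with median centring, 266 with quantile normalization, 73 with a fit of only the groups compared and 754 with no fold change threshold. The 9 genes with a higher effect with LPS became between 0 and 28 when 1 sample was left out, 3 with no filter on low values and 3 with no variance trend. The 48 genes with a lower effect with LPS became between 9 and 64 when 1 sample was left out, 15 with no filter on low values and 9 with no variance trend. The 427 genes raised in both settings became between 172 and 448 when 1 sample was left out, 275 with a filter at a mean TPM of at least 5, 199 with a fit of only the groups compared and 707 with no fold change threshold. The 68 genes lowered in both settings became between 44 and 80 when 1 sample was left out, 103 with median centring, 38 with a fit of only the groups compared and 396 with no fold change threshold. The cytochrome c oxidase transcript mt-Co3, not called, had a log2 change of -0.60 without C498+LPS replicate 2 and of 0.20 without C498+LPS replicate 1. Of the list and pathway medians under the alternatives, 31 of 1053 moved by at least the median standard error of the genes in the list. That is an error of single genes and not of a median. The alternative with no fold threshold uses the same log2 changes and could not move a median. Of the counts of called genes, 303 of 2108 moved by over 1.5 times. The labels give replicate numbers but no pairing, and the deviations of same-numbered samples correlated at only 0.04 to 0.042 across genes; with the replicate number as a block, and without NC, whose columns could not be tied to numbered labels, 677 genes were raised and 280 lowered, and 1 of the 165 calls was lost. TPM values carry no depth, so low genes cannot be given a counting error.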
